A study of Hordeum vulgare with 12 samples.

Results

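Root apices of the barley mutant hvatr.g were compared with those of its parent cultivar Sebastian, the wild type (WT), without any DNA damaging treatment. The comparison was chosen by its labels alone: the 3 hvatr.g libraries and the 3 WT libraries that were kept in mock medium, 6 of the 12 RNA-seq libraries of the series. hvatr.g carries a loss-of-function allele of ATR that was found by TILLING, a search for chemically induced point mutations, in the Sebastian background. All seedlings were 7 days old when transferred to liquid medium for 6 h, with zeocin at 500 µg/ml in the other 6 libraries and at 0 µg/ml in these. RNA came from dissected root apices with 3 biological replicates a group, and poly(A) RNA was sequenced. The mutant group is a single line, so the effect of the ATR allele and that of any other mutation the line carries cannot be told apart here. The purpose of the comparison was to show which genes the mutant expresses differently before any damage is induced.

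ATR is a protein kinase of the DNA damage response. It is recruited to single-stranded DNA coated by replication protein A, such as arises at stalled replication forks, and in plants it slows the cell cycle through factors that include the kinase WEE1 and the transcription factor SOG1. The root apex holds the meristem, where cells divide, and the first cells that elongate and differentiate behind it, where expansins loosen walls, peroxidases act on wall polymers and nitrate transporters begin to work.

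The 3 hvatr.g libraries held 74699245, 54801716 and 41255896 counts and the 3 WT libraries 41862795, 36100439 and 40420292, so the hvatr.g libraries were on the whole deeper. Pearson correlations of log2 CPM, counts scaled to library size, were 0.9785 to 0.9889 among hvatr.g libraries, 0.9682 to 0.9849 among WT libraries and 0.9398 to 0.9597 between the genotypes. No library stood apart from its group by this measure. Gene identifiers below leave out the common prefix HORVU.MOREX.r3 and the transcript number 1. Their first 2 characters give the chromosome. A gene was called higher or lower when edgeR's quasi-likelihood test gave a Benjamini-Hochberg adjusted p under 0.05 and the log2 fold change, hvatr.g over WT, was at least 1 in size.

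Of 26039 genes tested, 1007 were called higher in hvatr.g (3.87%) and 1192 lower (4.58%), 8.45% in all. The median log2 fold change was 1.66 among the genes called higher and -1.66 among those called lower, so that most changes were of moderate size. A log2 fold change under 2 was measured in 624 of the 1007 and above -2 in 796 of the 1192. At the far end, 185 genes had a log2 fold change of at least 3 and 169 of at most -3. The hvatr.g and WT libraries did not overlap in 2171 of the 2199 called genes, and in 32.8% of all genes tested. The called genes were less abundant than most, with a median of 2.43 CPM over the 6 libraries in those called higher and 4.18 in those called lower, against 9.14 over all genes tested. The median log2 fold change of all genes was 0.02.

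**Figure D1:**
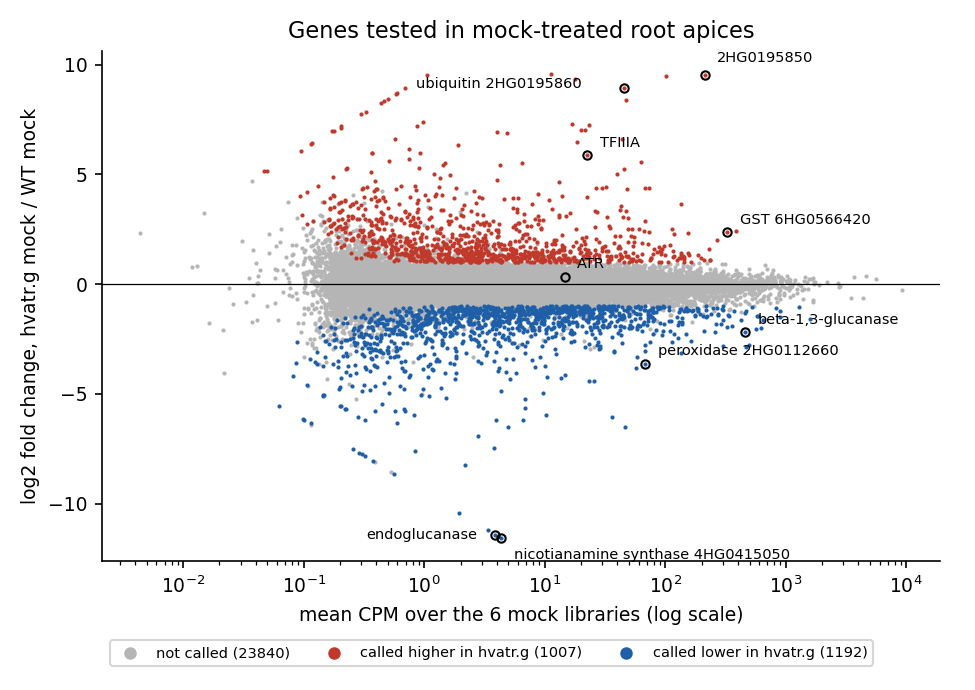
Log2 fold change of hvatr.g over WT without zeocin (vertical axis) against the mean CPM of the 6 mock libraries (horizontal log axis) for all 26039 genes tested. Called genes are coloured, 1007 higher and 1192 lower, and the labelled genes are described in the text, among them ATR close to 0.

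The same genotype difference was measured a second time in the zeocin libraries, which share no sample with the mock libraries. There 900 genes were called higher in hvatr.g (3.46%) and 1449 lower (5.56%). Of the 1007 genes higher without zeocin, 995 had the same sign under zeocin and 589 were called again, which is 58.5% of the 1007 and 65.4% of the 900. Of the 1192 genes lower without zeocin, 1185 kept their sign and 820 were called again, 68.8% of the 1192 and 56.6% of the 1449. No gene was called in opposite directions. Over all genes tested, 80.2% had the same sign in both comparisons, and across genes, which are not independent replicates, the Pearson correlation of the log2 fold changes was 0.811. The interaction test, whether the genotype difference itself depended on zeocin, called 0 genes at an adjusted p under 0.05 in edgeR. An unadjusted p under 0.05 was found for 1120 genes (4.3%), and the count at an adjusted p under 0.05 was 120 in DESeq2 and 1 in limma-voom.

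**Figure D2:**
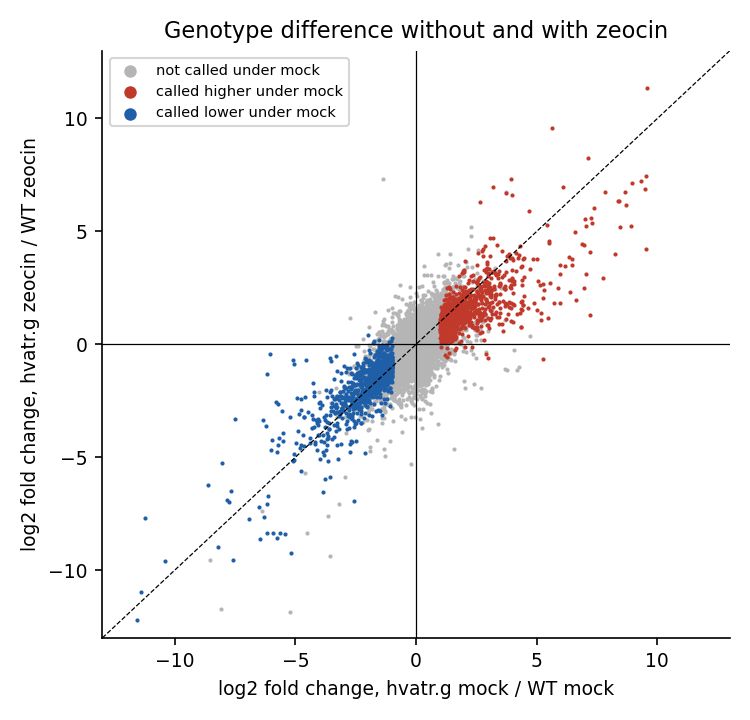
Log2 fold change of hvatr.g over WT in the zeocin libraries (vertical axis) against that in the mock libraries (horizontal axis), 1 point a gene, with genes called without zeocin coloured. Of the 2199 called genes, 2180 lie in the quadrants where both signs are the same.

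The targeted gene was measured first. ATR (7HG0748510) stood at 20.5, 15.4 and 13.1 CPM in hvatr.g and at 13.3, 15.4 and 9.85 CPM in WT. The groups overlapped, and the log2 fold change was 0.35 ± 0.21 (SE, n = 3 a group; edgeR adjusted p 0.299). A point mutation need not change the level of its transcript, so this value does not check the label of the libraries.

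ATM, WEE1, RAD9 and RAD17, which act beside or below ATR, were not called by edgeR. ATM (3HG0218410), the sister kinase that responds to double-strand breaks, had 60.3, 50.9 and 42.5 CPM in hvatr.g and 52.2, 48.0 and 24.0 in WT. WEE1 (6HG0555240), which restrains entry into mitosis, had 36.4, 34.8 and 30.3 against 32.7, 33.1 and 30.5 CPM, a log2 difference of 0.08 with an SE of 0.0976. Its groups overlapped, as did those of ATM. RAD9 (4HG0375490), part of the clamp that activates ATR, had a log2 fold change of 0.08, and RAD17 (4HG0392860), part of the loader of that clamp, of 0.28, its libraries not overlapping between the genotypes. The edgeR adjusted p was 0.474 for ATM, 0.66 for WEE1, 0.802 for RAD9 and 0.155 for RAD17, and these 4 genes were chosen after their values were seen.

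Over the whole list of barley homologs of DNA damage response and repair genes, which rests on sequence and not on these libraries, 325 genes were tested, 7 were called higher and 2 lower. Of all genes 3.87% and 4.58% were called in these directions. The median log2 fold change was 0.13, with 218 genes above 0 and 107 below. MSH5 (1HG0068200), a MutS homolog that acts in meiotic crossover formation, differed most. It had 2.44, 2.35 and 2.09 CPM in hvatr.g against 0.0482, 0.0282 and 0.347 in WT, so it was near silent in WT apices and low but steady in the mutant. The log2 fold change was 4.00 ± 0.70 (edgeR adjusted p 0.0026), and in the zeocin libraries it was 3.72. The other members of the MSH family, among them the mismatch repair proteins, were not called.

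SGL.C (2HG0175550), a homolog of SOG1 that the study names SOG1-like, had 1.72, 1.34 and 1.03 CPM in hvatr.g against 0.241, 0.0845 and 0.107 in WT. Its 3 hvatr.g libraries were all above the WT libraries, with a log2 fold change of 3.20 ± 0.41 (edgeR adjusted p 0.000329). Its relatives SGL.D and SGL.A had log2 fold changes of 0.49 and 0.70 and were not called, and neither was SOG1 itself at 0.23. ALKBH2 (7HG0672610), homologous to a dioxygenase that removes alkyl groups from DNA, rose from 0.893, 0.704 and 1.09 CPM in WT to 1.76, 2.14 and 2.52, a log2 change of 1.25. CRH1.A (1HG0081120) rose from 4.25, 3.86 and 4.11 to 9.67, 9.88 and 8.14 CPM, a log2 change of 1.18. ALKBH2 and CRH1.A were chosen after their values were seen. The remaining genes called higher were ARP.B at 1.64 and the FDM1 homologs FDM1.F at 1.49 and FDM1.G at 1.04 on the log2 scale. FDM1.G lost its call without hvatr.g replicate 1 (adjusted p 0.0825), WT replicate 1 (0.0673) or WT replicate 3 (0.0589), and also when the 6 mock libraries were fitted by themselves (0.0503).

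Both genes called lower were homologs of RPA2, the middle subunit of replication protein A. RPA2.B had 0.106, 0.125 and 0.048 CPM in hvatr.g and 0.507, 0.592 and 0.481 in WT, at or below 1 CPM in every library, with a log2 fold change of -2.42 (edgeR adjusted p 0.00508). RPA2.G had a log2 fold change of -1.10 (edgeR adjusted p 0.0358), and its call was lost whichever mock library was left out, with adjusted p between 0.0501 and 0.111. Small groups within the list had no call by edgeR, as groups of this size often would at 8.45% of all genes called: 0 of 11 DNA polymerase genes, 0 of 4 genes for replication factor C, which loads the sliding clamp, 0 of 5 Fanconi anaemia homologs, 0 of 5 RecQ helicases, 0 of 4 XRCC genes and 0 of 3 DNA ligases, with group medians between -0.03 and 0.35 on the log2 scale. XRCC2 (3HG0299140), at a log2 fold change of 0.89 without overlap, was called higher in limma-voom (1.01, adjusted p 0.0379). It was also called higher by edgeR without WT replicate 2 (1.34, adjusted p 0.0119). The 3 tested homologs of RAD23, a shuttle between repair and the proteasome, had log2 fold changes of -0.11, -0.08 and 0.21. None of the 3 subunit genes of ribonucleotide reductase, which makes the building blocks of DNA, was called. RNR1.A had a log2 fold change of 0.68 without overlap (edgeR adjusted p 0.00764) and missed the call by its size alone. RNR1.B and TSO2 stood at 0.21 and -0.07, with overlap.

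Genes of ubiquitin and of protein synthesis were among those with the largest rises. The study grouped 36 tested genes under the term peptide metabolic process after finding them higher in this very comparison, so their count carries no independent weight: 35 of the 36 were called higher, with a median log2 fold change of 2.91. Together they took 2670 to 3780 CPM in the hvatr.g libraries and 641 to 746 in the WT libraries.

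A pair of these genes are neighbours on chromosome 2H. 2HG0195850, which has no description in the sources used here, had 280, 401 and 596 CPM in hvatr.g and 0.0965, 0.676 and 0.961 CPM in WT. Practically all of its RNA was thus in the mutant, with a log2 fold change of 9.55 ± 0.57 (edgeR adjusted p 5.37e-06). 2HG0195860, a gene for ubiquitin, the small protein that marks others for degradation, had 47.5, 92.7 and 133 CPM against 0.217, 0.0845 and 0.24. Its log2 fold change was 8.93 ± 0.55 (edgeR adjusted p 6.19e-06). Farther along the same stretch lie 2HG0195900, at 36.4, 95.5 and 130 against 0.362, 0.62 and 1.74 CPM, and the ubiquitin family member 2HG0195920, at 48.6, 92.9 and 139 against 0.241, 0.479 and 0.107 CPM. The gene between those 2, 2HG0195910, went the other way, at 1.29, 2.03 and 2.74 against 3.11, 4.11 and 4.25 CPM. Its log2 fold change of -0.93 was not called by edgeR with all libraries, but was called lower in limma-voom (-1.03, adjusted p 0.0198) and without hvatr.g replicate 3 (-1.21, 0.0174) or WT replicate 1 (-1.06, 0.0455). 2HG0195900 and 2HG0195910 were chosen after their values were seen.

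Genes on other chromosomes behaved like this stretch. 4HG0348880 had 112, 201 and 292 CPM in hvatr.g and 0.217, 0.254 and 0.374 in WT, a log2 fold change of 9.48. 5HG0499990 had 13.9, 37.3 and 49.6 against 0.121, 0.451 and 0.0801 CPM, and 3HG0234070, described as a mitochondrial distribution and morphology protein, 16.9, 40.9 and 61.6 against 0.0965, 0.338 and 0.481 CPM. In each of these genes hvatr.g replicate 1 was the lowest of the mutant libraries and replicate 3 the highest, while every WT library stayed below 2 CPM. 5HG0490390 had 218, 1932 and 1230 counts in hvatr.g and 0, 0 and 3 in WT, a ratio of 745 after scaling with an exact 95% interval of 255 to 3610 that covers counting error only, and limma-voom did not call it (adjusted p 0.0894). 4HG0348880 and 5HG0499990 were chosen after their values were seen.

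Among the described genes with a role in translation, transcription factor IIIA (6HG0548800), which starts the transcription of 5S ribosomal RNA by RNA polymerase III and binds that RNA, had 24.6, 50.3 and 57.7 CPM in hvatr.g and 0.82, 0.62 and 0.774 in WT. All hvatr.g libraries were far above all WT libraries, with a log2 fold change of 5.89 ± 0.46 (edgeR adjusted p 1.86e-05), and of 2.49 in the zeocin libraries. The gene for subunit G of initiation factor eIF3 (4HG0340220), a factor that brings mRNA to the small ribosomal subunit, had 17.7, 39.3 and 53.3 against 0.386, 0.394 and 0.454 CPM, a log2 fold change of 6.47 (edgeR adjusted p 4.79e-05), and was chosen after its values were seen. A subunit gene of the initiation factor eIF2 (2HG0111800) had 0.517, 2.46 and 2.83 CPM in hvatr.g and only 1 count in WT, a ratio of 195 with an exact 95% counting interval of 34.7 to 7730.

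**Figure D3:**
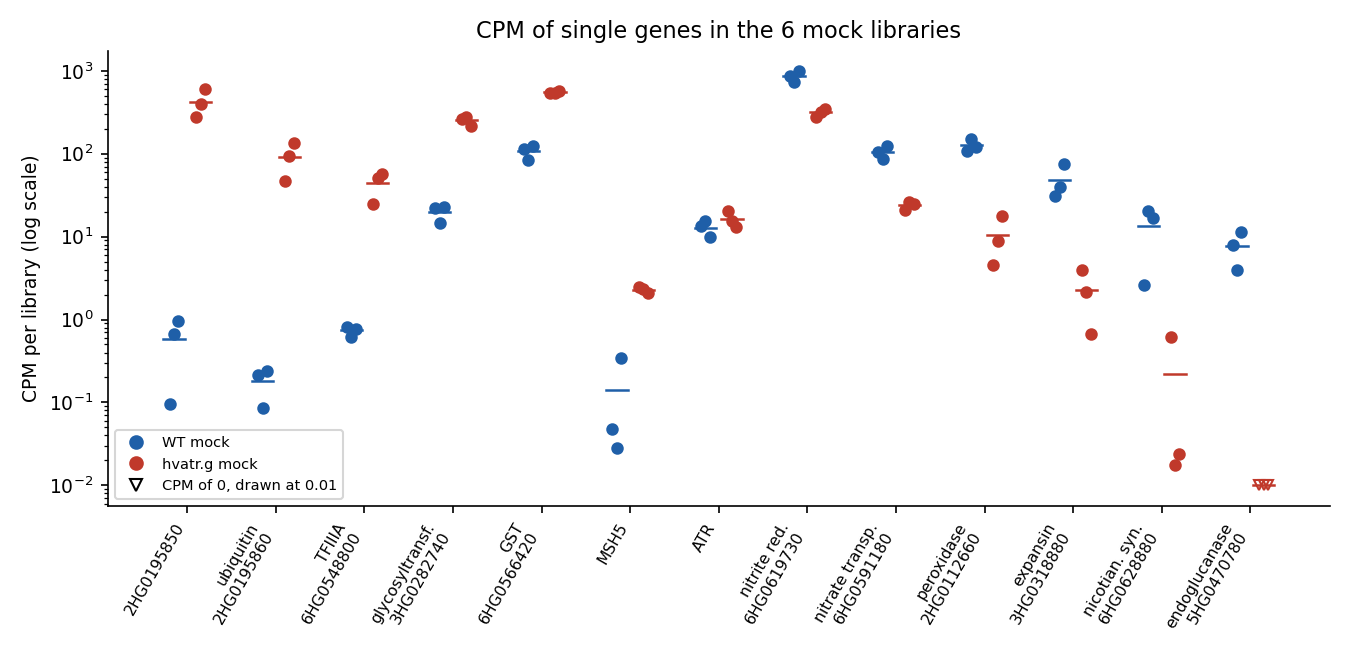
CPM of selected genes in each of the 6 mock libraries, on a log axis, with WT points blue, hvatr.g points red, a line at each group's mean and values of 0 drawn as triangles at 0.01. ATR overlaps between the genotypes, while the ubiquitin gene 2HG0195860 and transcription factor IIIA stand above 24 CPM in hvatr.g and below 1 CPM in WT.

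The names of gene families come from the descriptions in the study's tables, and those tables hold chosen genes: 1224 of the tested genes with a description were described because zeocin changed them in either genotype, and 316 because they were among the genes most reduced in hvatr.g under zeocin. Without zeocin 188 of the first set were called higher in hvatr.g (15.4%) and 61 lower (4.98%), and 0 of the second set were called higher by edgeR and 225 lower (71.2%). These shares, and not those of all genes, are the background of the families. A family below is therefore the part of it that these tables hold, and its count is not a sample of the whole family. Ubiquitin genes, for example, had 3 of 16 called higher and 0 lower by edgeR, with all 3 among 15 genes of the first set, which is near that set's share, and their median log2 fold change was 0.27.

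Genes that conjugate and export foreign or toxic compounds differed in both directions between the genotypes. Glutathione S-transferases attach the tripeptide glutathione to reactive molecules, which transporters then move out of the cytosol. The study's glutathione list for this comparison, chosen on these libraries, had 16 of 16 tested genes higher with a median log2 fold change of 1.94, at 1760 to 1870 CPM in sum in hvatr.g and 440 to 538 in WT. The glutathione S-transferases that the descriptions name were a wider group, and 7 of 19 were called higher and 2 lower, with a median of 0.30. All 7 were among 18 genes of the set changed by zeocin, in which 15.4% were called higher. The most abundant, 6HG0566420, had 535, 545 and 568 CPM in hvatr.g and 113, 83.2 and 124 in WT. Its libraries were tight within each genotype and wide apart between them, with a log2 fold change of 2.36 ± 0.20 (edgeR adjusted p 2.7e-05). 5HG0516720, a member of the glutathione list without a description, had 448, 436 and 408 against 104, 126 and 92.2 CPM and was chosen after its values were seen. 3HG0311610, a glutathione S-transferase, was close to absent from WT, with 0, 1 and 1 counts there against 66, 128 and 52, a ratio of 81.3 with an exact 95% counting interval of 22.3 to 675. 7HG0703570, a glutathione S-transferase of the T3 type, was lower, with a log2 fold change of -3.41.

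The 8 genes listed by the study for export of xenobiotics, again from these libraries, had 7 called higher and a median log2 fold change of 1.87. The most abundant, 5HG0499780, rose from 117, 124 and 99.6 CPM in WT to 337, 362 and 340, a log2 change of 1.61 (edgeR adjusted p 3.83e-05). 7HG0740620 had the largest change of the list, 6.94 on the log2 scale, and fell just short of the threshold in limma-voom (adjusted p 0.0517).

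Glycosyltransferases, which attach sugars to hormones, phenolics and other small molecules, split in direction. Of 33 tested, 15 were called higher and 10 lower. The 15 were all among 27 genes of the set changed by zeocin (15.4% higher in that set), and 6 of the 10 were from the set chosen as reduced under zeocin. In sum they reached 1010 to 1250 CPM in hvatr.g and 203 to 240 in WT, and a handful of genes carried that difference. 3HG0282740 had 266, 275 and 218 CPM in hvatr.g and 22.4, 14.4 and 22.7 in WT, and its log2 fold change was 3.67 ± 0.27 (edgeR adjusted p 1.27e-05). 3HG0239110 had 112, 134 and 146 against 6.34, 3.86 and 8.3 CPM. 2HG0106450 had 142, 203 and 241 against 31.1, 33.2 and 36.9 CPM, a log2 fold change of 2.53 that was 0.62 in the zeocin libraries. All 3 were high in every mutant library. In the other direction, 7HG0642480 held no count in any hvatr.g library and was at least 10.4-fold lower than in WT, taking 3 counts a library as the floor. 3HG0239110 and 2HG0106450 were chosen after their values were seen.

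Cytochromes P450, a large group of monooxygenases that oxidise hormones, defence compounds and foreign molecules, were split likewise, with 9 of 29 called higher and 7 lower. The 9 were all among 21 genes of the set changed by zeocin, and 5 of the 7 were from the set reduced under zeocin, where 71.2% were lower. The most abundant one called higher, 5HG0512320, had 219, 274 and 285 CPM in hvatr.g and 55, 52.5 and 45.7 in WT, and its log2 fold change was 2.34 (edgeR adjusted p 0.00026). 6HG0576040 was higher by 4.45 on the log2 scale, and 5HG0509500 was at least 11.0-fold lower. Of other enzymes and proteins among the most abundant genes called higher, a late embryogenesis abundant protein (1HG0080020), of a class that protects cell contents from drying, had 209, 206 and 174 against 38.8, 40.4 and 43 CPM. An aldehyde oxidase (5HG0517330) had 188, 216 and 270 against 86.3, 113 and 54.3 CPM. Neither gene overlapped between the genotypes, with log2 fold changes of 2.27 and 1.41.

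Among the genes that were lower, nicotianamine synthases stood out. Nicotianamine chelates iron, zinc and copper for transport inside plants, and in grasses it is the precursor of the mugineic acid siderophores that roots release to take up iron. Of 8 tested genes, which the study grouped from this comparison, 7 were called lower, with a median log2 fold change of -5.85, or -5.71 with genes at 0 set to their bound. Their summed level was 0.024 to 1.46 CPM in hvatr.g and 6.3 to 81.1 CPM in WT. 6HG0571820 had 0.504, 0.375 and 0 CPM in hvatr.g and 1.81, 31.5 and 27.4 in WT. 6HG0628880 had 0.623, 0.0178 and 0.024 against 2.61, 20.6 and 17.0 CPM. In both, WT replicate 1 was far below the other WT libraries yet above every hvatr.g library. The log2 fold changes were -5.94 ± 1.31 (edgeR adjusted p 0.00973) and -5.65 ± 1.2 (adjusted p 0.00773). 4HG0415050 had no count in hvatr.g and 0.579, 16.7 and 8.84 CPM in WT, at least 158-fold more. The wide spread among the WT libraries weakened the calls: 3 of the 8 genes were called without hvatr.g replicate 2, 4 without hvatr.g replicate 1 or WT replicate 2, and 1 in limma-voom. Yellow stripe transporters, which carry metals bound to such chelators, had 0 of 3 called by edgeR, but all 3 were below 0, with a median of -1.0. In the zeocin libraries all 3 were called lower. Of these 3 genes, 1 was from the set reduced under zeocin and 2 from the set changed by zeocin. Their count in the zeocin libraries thus carries no independent weight. Without zeocin 2HG0199650 was called lower in DESeq2 (-5.05, adjusted p 0.0358). 2HG0185190 was called lower by edgeR in the 6 mock libraries alone (-1.01, adjusted p 0.0365).

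Genes of nitrogen uptake and assimilation formed the other large lower group. The study's list of nitrogen genes, which was drawn up from this comparison, had 31 tested members, of which 23 were called lower and 3 higher. The list's median was -1.45 on the log2 scale, with sums of 875 to 956 CPM in hvatr.g against 2070 to 2540 in WT. All 6 high-affinity nitrate transporters, which take up nitrate when it is scarce in the soil, were lower, with a median of -2.92. 6HG0591180, the most abundant among them, had 20.8, 25.9 and 24.9 CPM in hvatr.g and 104, 85.3 and 125 in WT, a log2 fold change of -2.14 ± 0.16 (edgeR adjusted p 1.32e-05). The neighbours 6HG0543380, 6HG0543390 and 6HG0543400 had log2 fold changes of -3.51, -3.14 and -5.54. 3HG0283350, at -1.51, lost its call without hvatr.g replicate 2 (adjusted p 0.0731), hvatr.g replicate 3 (0.0599) or WT replicate 1 (0.0652).

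Of 7 tested members of the NRT1/PTR family, transporters of nitrate and of other small molecules, 6 were lower and 1 higher. The nitrate transporter 1.1 gene 1HG0056390 had 76.8, 64.3 and 14.5 CPM in hvatr.g and 252, 255 and 238 in WT. Its hvatr.g replicate 3 was far below the other mutant libraries, and all mutant libraries were below WT, with a log2 fold change of -2.26. The neighbouring 1HG0056410 had 36.8, 52.2 and 31.8 against 120, 112 and 134 CPM, a change of -1.60. The member that went the other way, 1HG0064910, had 69.3, 64.3 and 48.8 against 28.7, 17.4 and 28.4 CPM, with a log2 fold change of 1.29 (edgeR adjusted p 0.00678).

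The enzymes that reduce nitrate inside the cell were lower as well. Nitrate reductase (6HG0541410), which forms nitrite, had 22.4, 29.8 and 18.9 CPM in hvatr.g and 104, 94.8 and 79.5 in WT, a log2 fold change of -1.97 (edgeR adjusted p 0.000487). Nitrite reductase (6HG0619730), which forms ammonium, had 274, 323 and 350 against 874, 724 and 983 CPM, a log2 fold change of -1.45 ± 0.18 (edgeR adjusted p 0.000255). No mutant library reached the WT range in either gene. The ammonium transporters 2HG0180820 and 6HG0595580 were lower by smaller steps, 133, 135 and 132 against 318, 262 and 325 CPM in the first and 168, 186 and 205 against 410, 363 and 453 CPM in the second. Of the listed amino acid transporters 4 of 6 were lower and 1 higher, and of the peptide transporters 2 of 7 were lower and 1 higher. The lower amino acid transporters numbered 2 without hvatr.g replicate 1, hvatr.g replicate 2 or WT replicate 3. The lower peptide transporters numbered 0 without hvatr.g replicate 1 and 1 without hvatr.g replicate 3, WT replicate 2 or WT replicate 3, and the higher ones 2 without hvatr.g replicate 1, WT replicate 1 or WT replicate 2.

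Class III peroxidases are secreted enzymes that use hydrogen peroxide to cross-link or cleave wall polymers. The study's list for hydrogen peroxide catabolism, drawn from this comparison, had 32 of 37 tested genes called lower, a median log2 fold change of -2.02, and sums of 379 to 432 CPM in hvatr.g against 1870 to 2040 in WT. Leaving out hvatr.g replicate 2 left 18 of the 37 called, and leaving out hvatr.g replicate 1, hvatr.g replicate 3 or WT replicate 3 left 21. A single gene, 2HG0112640, supplied much of the difference, with 135, 99.2 and 146 CPM in hvatr.g and 890, 826 and 859 in WT. Its libraries were tight in both genotypes, with a log2 fold change of -2.76 ± 0.16 (edgeR adjusted p 5.37e-06). 2HG0112660, close to it on chromosome 2H, had 4.5, 8.86 and 17.8 against 109, 151 and 120 CPM, and 1HG0025050 had 26.9, 26.6 and 41.4 against 127, 127 and 151 CPM. 2HG0112640 and 1HG0025050 were chosen after their values were seen. Among described peroxidases 12 of 22 were lower and 1, 2HG0204080, was higher by 3.60 on the log2 scale. Of the 11 not taken from the set reduced under zeocin, 1 was lower and 1 higher.

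Expansins loosen the wall so that cells can elongate. Of 10 tested, 7 were called lower, and those 7 were all from the set reduced under zeocin while the other 3 were not called. They summed to 97.2 to 120 CPM in hvatr.g and 413 to 683 in WT. 3HG0318880 had 3.91, 2.14 and 0.672 CPM in hvatr.g and 30.7, 40.1 and 75.4 in WT, a log2 fold change of -4.40 ± 0.65 (edgeR adjusted p 0.000941). 3HG0318580, the more abundant, had 35, 23.6 and 22.6 against 200, 186 and 338 CPM. Every mutant library was below every WT library in both. A list that the study names sexual reproduction, with 12 of 12 tested genes lower because it was drawn from the genes lower in this comparison, holds 6 of these expansins, which are known for wall loosening.

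Other described families with mostly lower members were small, and all lower members of the dirigent, early nodulin and thionin families were from the set reduced under zeocin. Dirigent proteins, which steer the coupling of phenolic radicals into lignans, had 6 of 8 called lower. GDSL esterases and lipases had 4 of 4 lower, and the abundant 7HG0748760 had 81.9, 89.2 and 56.5 CPM in hvatr.g and 593, 572 and 418 in WT, a log2 fold change of -2.80 (edgeR adjusted p 0.00475). Early nodulin genes had 6 of 9 lower, all within 7HG0649480 to 7HG0649590. In 7HG0649540 the values were 11.5, 7.62 and 3.6 against 105, 33.2 and 184 CPM, with WT replicate 2 the lowest WT library, and 3 of the 6 were called without hvatr.g replicate 2, hvatr.g replicate 3 or WT replicate 3. Thionin and thionin-like genes, which encode small antimicrobial peptides, had 3 of 4 lower. The thionin-like 7HG0752470 held no count in hvatr.g and 2.75, 14.2 and 3.44 CPM in WT, at least 123-fold more, and its neighbour 7HG0752450 was at least 70.5-fold lower.

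Genes of defence and signalling differed in both directions. Resistance proteins of the NBS-LRR class, receptors that sense pathogen molecules inside the cell, had 7 of 16 called lower and 1 higher, with 6 of the 7 from the set reduced under zeocin. The lower genes numbered 4 without WT replicate 1, and the higher one lost its call without hvatr.g replicate 2, hvatr.g replicate 3, WT replicate 1 or WT replicate 2. All were rare: 1HG0003280 had 0.239, 0.196 and 0.504 CPM in hvatr.g and 2.1, 1.75 and 0.935 in WT, and no mutant library reached the WT range. Chitinases, which cut the chitin of fungal walls, had 2 of 7 called higher and 0 lower by edgeR. All 7 were from the set changed by zeocin, in which 15.4% were called higher. The chitinase gene 2HG0178020 had 16.1, 14.5 and 17.9 against 7.98, 5.1 and 7.26 CPM. Its log2 fold change of 1.25 lost its call without hvatr.g replicate 1 (adjusted p 0.0522), hvatr.g replicate 3 (0.06) or WT replicate 2 (0.0732). The chitinases called higher numbered 1 without any single hvatr.g replicate, 0 without WT replicate 2 and 3 without WT replicate 3. Of 8 WRKY genes, transcription factors of defence, edgeR called 0. They too were all from the set changed by zeocin, with 15.4% higher and 4.98% lower.

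F-box proteins, which pick the targets of ubiquitin ligases, had 3 of 17 called higher and 2 lower. All 3 were among 16 genes of the set changed by zeocin, near its share of 15.4%. 5HG0473390, the most abundant of the 3, had 14.2, 25.2 and 32.0 CPM in hvatr.g and 3.45, 1.78 and 2.86 in WT, a log2 fold change of 3.13 (edgeR adjusted p 0.000239). As in the ubiquitin genes of 2H, hvatr.g replicate 1 was the lowest mutant library. Of 6 transporters described as ABC transporters, pumps driven by ATP, 1 was higher and 2 lower. The 2 were among 3 genes of the set reduced under zeocin, where 71.2% were lower. The higher one was among 3 of the set changed by zeocin. Neither of the lower genes was called without hvatr.g replicate 2 or hvatr.g replicate 3 or in limma-voom, and 1 was called without hvatr.g replicate 1, WT replicate 1 or WT replicate 2. The higher one, 3HG0282640, had 14.0, 39.4 and 38.6 against 5.77, 4.87 and 5.5 CPM, with a log2 fold change of 2.51 that was 0.77 under zeocin. Of the genes described as transposons or retrotransposons, 13 of 27 were lower and 1 higher, and 9 of the 13 were from the set reduced under zeocin. The higher one lost its call without hvatr.g replicate 2 or WT replicate 1. 6HG0588050, of the Ty1-copia class, had 0.0398, 0.0535 and 0.12 CPM in hvatr.g and 2.24, 1.78 and 1.63 in WT, a log2 fold change of -4.78 ± 0.47 (edgeR adjusted p 6.88e-05).

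The most abundant genes called lower included a beta-1,3-glucanase (3HG0319530), which cuts callose and fungal walls, with 188, 153 and 156 CPM in hvatr.g and 754, 667 and 827 in WT. The log2 fold change was -2.18 ± 0.22 (edgeR adjusted p 8.09e-05). A lipid transfer protein (7HG0732460) had 138, 160 and 453 against 841, 631 and 1510 CPM, replicate 3 being the highest in both genotypes, and lost its call without hvatr.g replicate 2 (adjusted p 0.0601). An endoglucanase (5HG0470780), of the enzymes that cut cellulose-like glucans, had no count in hvatr.g and 7.94, 3.94 and 11.3 CPM in WT, at least 140-fold more.

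**Figure D4:**
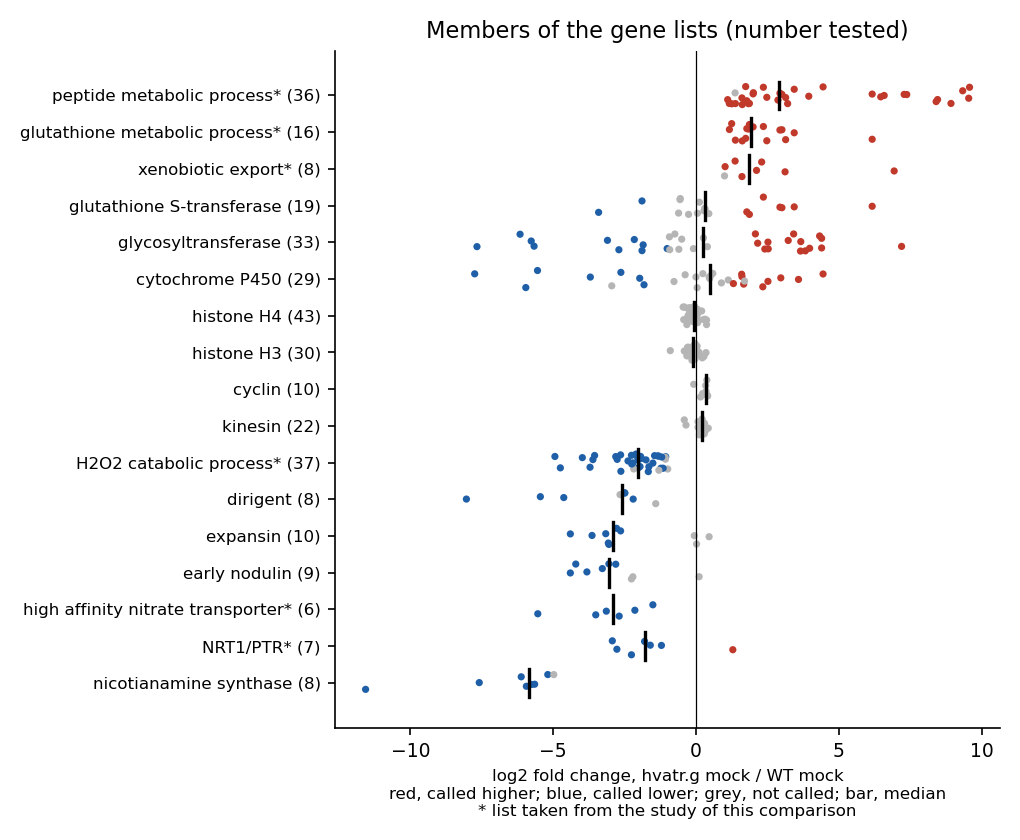
Log2 fold change of hvatr.g over WT without zeocin (horizontal axis) for every tested member of the main lists, 1 point a gene, with a line at each list's median. Red points were called higher, blue lower and grey not, and an asterisk marks lists the study drew from this comparison. Nicotianamine synthases carry no asterisk here, although the study grouped them from this comparison too. All lower expansin, dirigent and early nodulin genes were from the set reduced in hvatr.g under zeocin. Histones H3 and H4 lie around 0, and most cyclins and kinesins lie slightly above it. Peptide metabolic process and glutathione lie to the right, and nicotianamine synthases, nitrate transporters and expansins lie to the left.

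Genes that mark dividing cells had few calls. Of the described histone genes, whose mRNA is made in S phase, edgeR called 0 of 31 for H2A, 0 of 25 for H2B, 0 of 30 for H3 and 0 of 43 for H4, with median log2 fold changes of 0.07, -0.08, -0.10 and -0.08. Cyclins had 0 of 10 called at a median of 0.33 and kinesins 0 of 22 at a median of 0.21. Most leaned slightly upward, with 9 cyclins above 0 and 1 below, and 20 kinesins above and 2 below. Over all genes tested 13678 were above 0 and 12360 below. The study's list of cell cycle genes that zeocin lowered had 1 of 37 called, a lower gene that kept its call only without hvatr.g replicate 3 among the libraries left out, and its DNA replication genes 0 of 25, with medians of 0.21 and 0.03. These genes were described because zeocin changed them, a choice that used the mock and the zeocin libraries of each genotype. Of all tested genes described for that reason, 15.4% were called higher without zeocin and 4.98% lower. In the zeocin libraries the cyclins had a median of -1.29 for the same genotype comparison, with 7 of 10 lower, and the cell cycle list a median of -0.98, with 17 of 37 lower. Of all genes tested 5.56% were called lower there. Because those zeocin libraries entered the choice of the genes, these counts carry no independent weight. Peroxidases, expansins, dirigent proteins, nitrate transporters and nicotianamine synthases, taken here as markers of differentiating root cells, had the counts given above, from lists largely chosen as lower in hvatr.g. Where in the apex these genes are expressed was not measured, and whether the share of such cells differed was not tested. In bulk tissue fewer cells of a type and less RNA per cell cannot be told apart, nor can the exact place at which the apices were dissected. Of shoot markers a single chlorophyll a-b binding gene (7HG0668480) was tested, at 0 to 0.0357 CPM in hvatr.g and 0.0724 to 0.481 in WT. It was called lower, with a log2 fold change of -3.71, and was from the set reduced under zeocin. Among the libraries left out, it kept its call only without WT replicate 1.

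Called genes were spread over the genome. Between 7.59% (chromosome 4H) and 8.89% (5H) of the tested genes of a chromosome were called. In windows of 50 neighbouring tested genes the median was 4 called genes, and the densest window, on 7H from 7HG0648980 to 7HG0650560, held 16, of which 4 were higher and 12 lower, early nodulin genes among them. Runs of at least 3 neighbouring tested genes called in the same direction numbered 14 for higher and 30 for lower genes, and runs of at least 5 numbered 1 and 6. Neighbours with the same description may be similar in sequence, which was not measured, and how reads that match several genes were counted is not given in the sources used here, so the share of each such gene is uncertain.

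The longest run of higher genes was 8 neighbours on 5H, from 5HG0444080 to 5HG0444220, described as pathogenesis-related proteins, which plants make under attack, with a major allergen gene among them. 5HG0444150 had 29, 21.6 and 29.4 CPM in hvatr.g and 3.64, 1.89 and 3.63 in WT, a log2 fold change of 3.12 (edgeR adjusted p 0.000595). 5HG0444140, the major allergen gene, had 24.2, 15.1 and 22 against 1.52, 1.04 and 1.68 CPM. All mutant libraries were above all WT libraries in both. Of the other members, 5 had log2 fold changes from 2.69 to 4.06, and 5HG0444100, at 0 in WT and at least 1.26-fold higher in hvatr.g, lost its call whichever mock library was left out.

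The longest run of lower genes was 9 neighbours on the same chromosome, from 5HG0446930 to 5HG0447010, with log2 fold changes of -3.04 to -4.49. Most are described as retrotransposon or Pol polyprotein genes, and the last, 5HG0447010, as a galactose oxidase with kelch repeats. Their RNA was rare: 5HG0446930 had 0.199, 0 and 0.312 CPM in hvatr.g and 2.53, 3.04 and 2.83 in WT. Neighbouring rows of this kind can be pieces of a single element, and 5HG0446950, 5HG0446990, 5HG0447000 and 5HG0447010 lost their calls when single libraries were left out. A run of 6 lower genes at the start of 1H, from 1HG0000380 on, mixed pectin lyase-like enzymes, which cut wall pectin, with jasmonate-induced proteins. The pectin lyase-like 1HG0000380 had 1.05, 0.464 and 0.384 CPM in hvatr.g and 9.34, 9.41 and 13.9 in WT, a log2 fold change of -4.06, and 1HG0000420 and 1HG0000460 had -4.79 and -4.02. The jasmonate-induced 1HG0000390 and 1HG0000430 had -3.08 and -3.23.

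**Figure D5:**
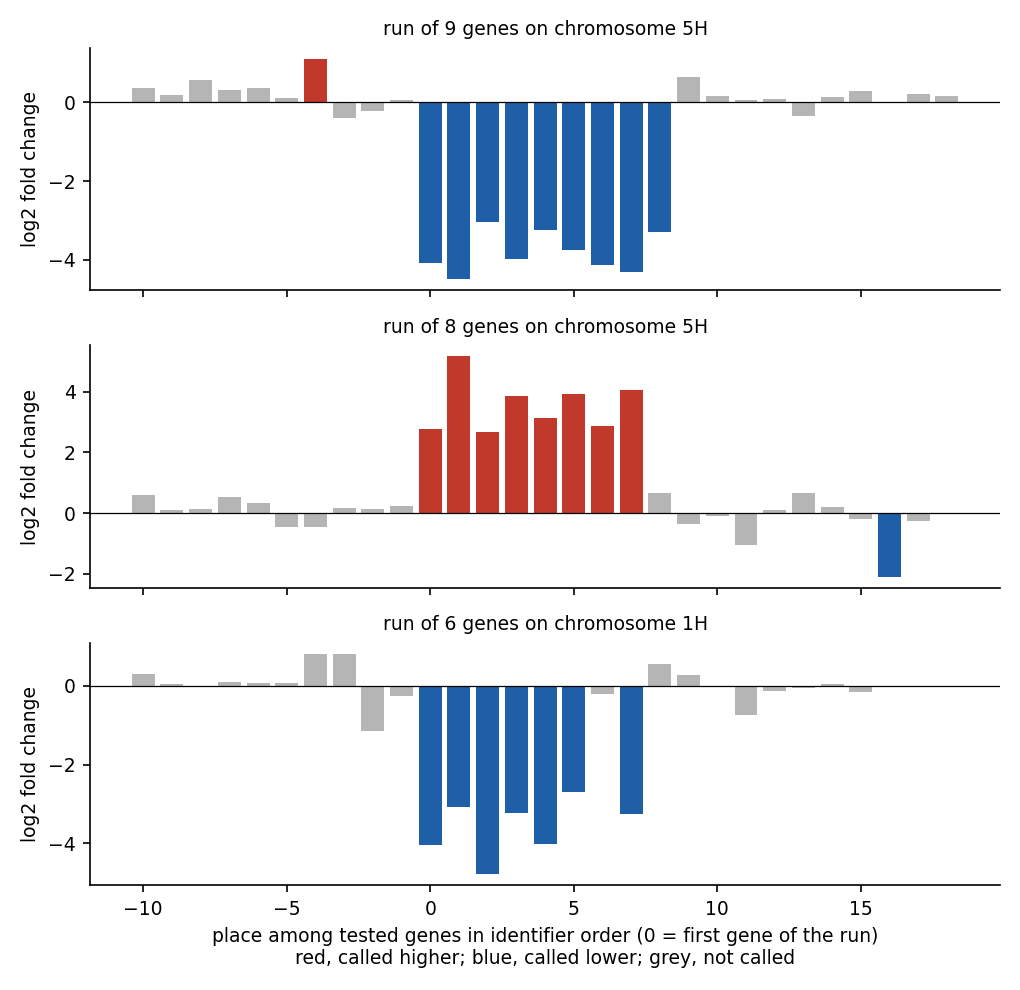
Log2 fold change of hvatr.g over WT for tested genes in and around the 3 longest runs of neighbouring called genes, in gene order along the chromosome (horizontal axis, place from the first gene of the run). The runs on 5H hold 8 higher and 9 lower genes in a row, and the run on 1H holds 6 lower genes.

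A last group was close to silent in a single genotype. With at most 3 counts in each library of one genotype and at least 20 in each of the other, 40 genes were near 0 in WT and 5 in hvatr.g. The hvatr.g libraries were deeper, which favours the first kind: at most 0.05 CPM against at least 0.5 CPM, a rule added after seeing the data, gave 14 and 5. Of the 40, 39 were called higher, 16 were near 0 in the WT zeocin libraries too, and in 38 the zeocin libraries differed the same way without overlap. They lay on 7 chromosomes. In 9 of them WT held no count at all, with hvatr.g at least 7.58-fold to at least 26.9-fold higher. The upper end was another F-box gene, 7HG0687530, with 0.809, 1.82 and 3.74 CPM in hvatr.g. A linalool synthase gene (6HG0549070), for an enzyme of a floral and defence volatile, was at least 15.1-fold higher, and a PR-5 homolog (2HG0188970) at least 7.58-fold. Of the 5 near 0 in hvatr.g, all were called lower, 4 were near 0 in the hvatr.g zeocin libraries too, and 4 held no count at all, among them the endoglucanase, the nicotianamine synthase 4HG0415050 and both thionin-like genes given above. The remaining gene was a citrate-binding protein (1HG0078810), with 1.59, 1.01 and 1.39 CPM in WT and a ratio of WT to hvatr.g of 58.3, exact 95% counting interval 22.3 to 217, chosen after its values were seen.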

How the data were processed

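The deposited table holds raw counts of reads per transcript model, which the authors made from 150 bp paired-end poly(A) libraries by trimming with Trim Galore, aligning to the Morex v3 barley assembly with HISAT2 2.1.0 and counting with Subread 1.5.2. Strand and multimapped reads were handled in ways not given in the sources used here. Of 83990 rows, 44309 were 0 in all 6 mock libraries, and 26039 passed filterByExpr over the 4 groups (232 were further transcripts of a gene).

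All 12 libraries were fitted together in edgeR 4.0.16 (TMM factors, glmQLFit, glmQLFTest, no covariate), with contrasts for hvatr.g over WT in mock and in zeocin and for their interaction. p-values were adjusted over all genes tested. CPM used effective library sizes. SEs were computed as the log2 fold change over the square root of F. With 3 against 3 libraries an exact permutation test cannot go below 0.1, so none was used.

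Alternatives were RLE or library-size scaling, no filter, a minimum of 10 counts, DESeq2 1.42.0, limma 3.58.1 (voom), the 6 libraries alone, transcripts summed per gene, a replicate block and leaving out each library. The fit was tested on simulated data.

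Gene names, lists and descriptions, but no values, came from the study's supplementary tables, and 1858 tested genes had one. The members and lists were chosen with earlier results of these data known. Named genes were ATR, genes the study names, up to 4 members with the largest change per list (any member in lists of at most 8), the 8 described genes with the largest change and the 5 most abundant per direction, the 2 with the largest change of all per direction, and the 3 longest runs; others are said to be chosen after their values were seen. Some genes are not reported here. No sequence or coordinate was used. The study says this material was prepared much as for its quantitative PCR. There each sample held the root tips of a single plant, with 3 plants a treatment. It calls the RNA-seq replicates biological and does not say whether they were grown apart. The p-values thus measure the spread between these samples.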

Additional observations from a re-analysis of the deposited data

Results flagged for a closer look

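A heat shock transcription factor gene (2HG0119970) moved in opposite directions by genotype in the mock and the zeocin libraries. Without zeocin it had 20, 18.0 and 18.4 CPM in hvatr.g and 15, 15.2 and 17.6 in WT, every mutant library above every WT library, with a log2 fold change of 0.24 (edgeR adjusted p 0.387). Under zeocin every mutant library was below every WT library, with means of 7.63 and 12.1 CPM and a log2 fold change of -0.67 (edgeR adjusted p 0.019). The interaction test gave an unadjusted p of 0.00234 in edgeR, and over all genes that test called 0 at an adjusted p under 0.05. The gene was singled out by this pattern of signs, so the pattern is not independent evidence.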

How the results depend on the processing

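Of 173 named genes called, 126 kept their call under every alternative run, and no result changed direction. Over 4554 values of named genes under an alternative, 162 fell below the threshold and 49 rose past it. By an adjusted p under 0.05 alone 1907 genes were higher and 2173 lower, and with a log2 threshold of 2, 383 and 396. DESeq2 called 1145 and 1447, and scaling by library size alone, which moved the median log2 fold change of all genes to 0.09, called 1129 and 1063. Leaving out single libraries gave 771 to 902 higher and 886 to 1224 lower. Genes with an interaction numbered 33 with no filter, 120 in DESeq2, 1 in limma-voom and 0 to 1 with a library left out. Damage response homologs called lower numbered 1 in the 6 libraries alone and 1 to 3 with a library left out. Those called higher numbered 6 to 10 with a library left out. The cell cycle list that zeocin lowered had 1 gene lower, and 0 to 1 with a library left out. With a library left out, 18 to 29 genes of hydrogen peroxide catabolism, 3 to 7 nicotianamine synthases (1 in limma-voom) and 3 to 8 early nodulin genes were called lower. Genes near 0 in WT numbered 9 at 0 counts, 11 against at least 50 counts and 14 by CPM, and those near 0 in hvatr.g 4, 3 and 5. Same-numbered mock replicates of the groups deviated together with correlations of 0.2667, -0.01545 and 0.2736, and differently numbered ones with -0.2933 to 0.1084. Replicates 1 and 3 thus deviated most like their own number in the other genotype, and replicate 2 did not. Whether the numbers pair the samples is not settled by these values. The main fit used no pairing, and a fit with a replicate block called 1096 higher and 1269 lower. The 3 libraries a group and low counts in many called genes limit the precision of single fold changes.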
